A study of Trichoderma atroviride IMI 206040 with 36 samples.

Results

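Of the 11863 predicted transcripts of *Trichoderma atroviride* counted in this experiment, 16 were lower in the Δenv-1 strain than in the wild type (WT) in darkness and after a blue light pulse alike. They were chosen on their levels: CPM (the estimated count of a transcript scaled to the same total in every library, by column sum) with 0.5 added had to be, in the highest of the 6 Δenv-1 libraries, at most 0.67 times the lowest of the 6 WT libraries, and the WT mean had to reach 5 CPM, which 7909 transcripts did. The same rule with the strains exchanged gives 6 transcripts. Mycelium was grown for 36 h in darkness on potato dextrose agar under cellophane. Each strain has 3 libraries of mycelium frozen 30 min after blue light of 200 µmol per square metre, and 3 of plates kept dark.

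The groups are Δenv-1, Δblr-1, Δblr-2 and WT, the strain IMI 206040, each in light and in darkness. In Δenv-1 the open reading frame of *env*-1 was replaced by the hygromycin resistance gene *hph*, and a single purified transformant was sequenced. Δblr-1 and Δblr-2 are mutants of *blr*-1 and *blr*-2, whose construction is not given in the sources used here. No group carries a further treatment, and the dark plates are the reference for light. The labels name the 3 libraries of a group biological replicates, and nothing else says how far the cultures were separate.

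BLR-1 and BLR-2 are the counterparts in *Trichoderma* of the White Collar proteins of *Neurospora crassa*, which act together as a transcription factor complex that blue light activates. BLR-1 carries the light-sensing domain, and BLR-2 is its partner. ENVOY, the product of *env*-1, is the counterpart of VIVID, a small flavin-binding photoreceptor of *N. crassa* whose gene is itself induced by light and which dampens the response of the complex when light persists. In *T. atroviride* blue light is known above all as a trigger of conidiation, the formation of asexual spores on the colony.

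None of the 16 transcripts has a gene name or product in the sources used here, apart from gene 288145, which a table of the study calls a hypothetical protein. They are therefore given by their identifiers, without roles. None belongs to the light pathway genes considered beside them, which were *env*-1, *cry*-1, *cry*-DASH, the photolyase gene *phr*-1, the clock gene *frq*, the MAP kinase gene *tmk*-3, *blu*-1 and *bld*-2.

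Library totals ranged from 1519260 to 22011847 estimated counts (median 8148940 over 24 libraries). In Δenv-1 dark replicate 3 a single transcript took 19.5% of all counts, against at most 9.4% in any other library, and its trimmed mean of M-values (TMM) scaling factor was 0.749. The authors left that library out of their tests for its larger variation. It is part of the choice of members but not of the tests below, which used 23 libraries and 9605 transcripts that passed a filter on low counts. All 16 members passed it. Reads on the *env*-1 transcript were present in the Δenv-1 libraries, at 267 ± 28.3 CPM in light and 30.7 ± 2.47 CPM in darkness, against 109 ± 2.97 and 1.88 ± 0.198 CPM in WT (SD, n = 3 each). The authors place such reads in the 3′ untranslated part left behind by the replacement, so the total count of this transcript does not check the deletion.

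The levels of the 16 members in Δenv-1 and WT describe what the rule selected, and no test is attached to them. The mean over 6 libraries was between 2.28 and 16.3 times lower in Δenv-1 than in WT. Gene 301725, the most highly expressed in WT, had 131, 97.3 and 144 CPM in Δenv-1 light and 81.9, 77.8 and 111 CPM in Δenv-1 darkness, against 2396, 865 and 2570 CPM in WT light and 2675, 343 and 1605 CPM in WT darkness. Its mean was 16.3 times lower in Δenv-1. Replicate 2 was the lowest WT library in both treatments, and even there the transcript exceeded every Δenv-1 library.

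Gene 267549 had the lowest ratio of the highest Δenv-1 library to the lowest WT library, 0.413. It gave 1.74, 1.80 and 1.95 CPM in Δenv-1 light and 1.18, 1.31 and 2.14 CPM in Δenv-1 darkness, against 33.9, 9.18 and 49.6 CPM in WT light and 35.5, 5.89 and 28.8 CPM in WT darkness. The Δenv-1 values lay close together, while the WT values spread over 8.43 times from lowest to highest. Counts behind the Δenv-1 values were low, with 10 as the smallest.

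Gene 321268 averaged 11.98 ± 2.99 CPM in Δenv-1 and 135.5 ± 71.4 CPM in WT (SD, n = 6 each). Gene 227276 averaged 4.39 ± 1.06 CPM in Δenv-1 and 37.2 ± 18.7 CPM in WT. Gene 319981, whose Δenv-1 libraries held 5 to 58 counts, averaged 1.33 ± 0.872 CPM in Δenv-1 and 11.03 ± 5.68 CPM in WT. These 3 members were 11.3, 8.46 and 8.31 times lower in Δenv-1.

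In 7 further members the mean was between 4.19 and 5.33 times lower in Δenv-1. Gene 90691 was the steadiest of them in Δenv-1, at 44.0, 43.7 and 43.1 CPM in light and 48.3, 44.4 and 47.7 CPM in darkness, against 278, 99.4 and 280.3 CPM in WT light and 319, 82.3 and 244 CPM in WT darkness. The others were genes 302297, 47800, 288145, 300751, 319201 and 214553, with Δenv-1 means between 1.98 and 25.9 CPM and WT means between 10.52 and 132 CPM.

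The remaining 4 members differed least. Gene 137289 stood apart for its narrow WT range: it had 296, 341 and 289 CPM in Δenv-1 light and 194, 275 and 200 CPM in Δenv-1 darkness, against 712, 567 and 608 CPM in WT light and 673, 545 and 558 CPM in WT darkness. The highest WT library exceeded the lowest by 1.31 times, the smallest such range among the members. Genes 77489, 271260 and 32328 were close to the WT minimum of the rule, with means of 2.37, 2.57 and 2.96 CPM in Δenv-1 and 5.41, 7.03 and 8.22 CPM in WT.

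The threshold separated neighbouring values. The 3 members just inside it, genes 319201, 32328 and 214553, had ratios of 0.650, 0.660 and 0.665, and the 3 transcripts just outside it, genes 302204, 134170 and 228210, had ratios of 0.6702, 0.680 and 0.683. Gene 302204 averaged 35.4 CPM in Δenv-1 and 148 CPM in WT, a larger difference than in several members. With TMM-scaled CPM in place of column sums 9 of the 16 met the rule, and in 6 of the 7 that did not, Δenv-1 dark replicate 3 was then the highest Δenv-1 library. All 16 had every Δenv-1 library below every WT library on either scale, as the rule requires by CPM, and so did 4.5% of the 7909 transcripts by CPM.

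**Figure D1:**
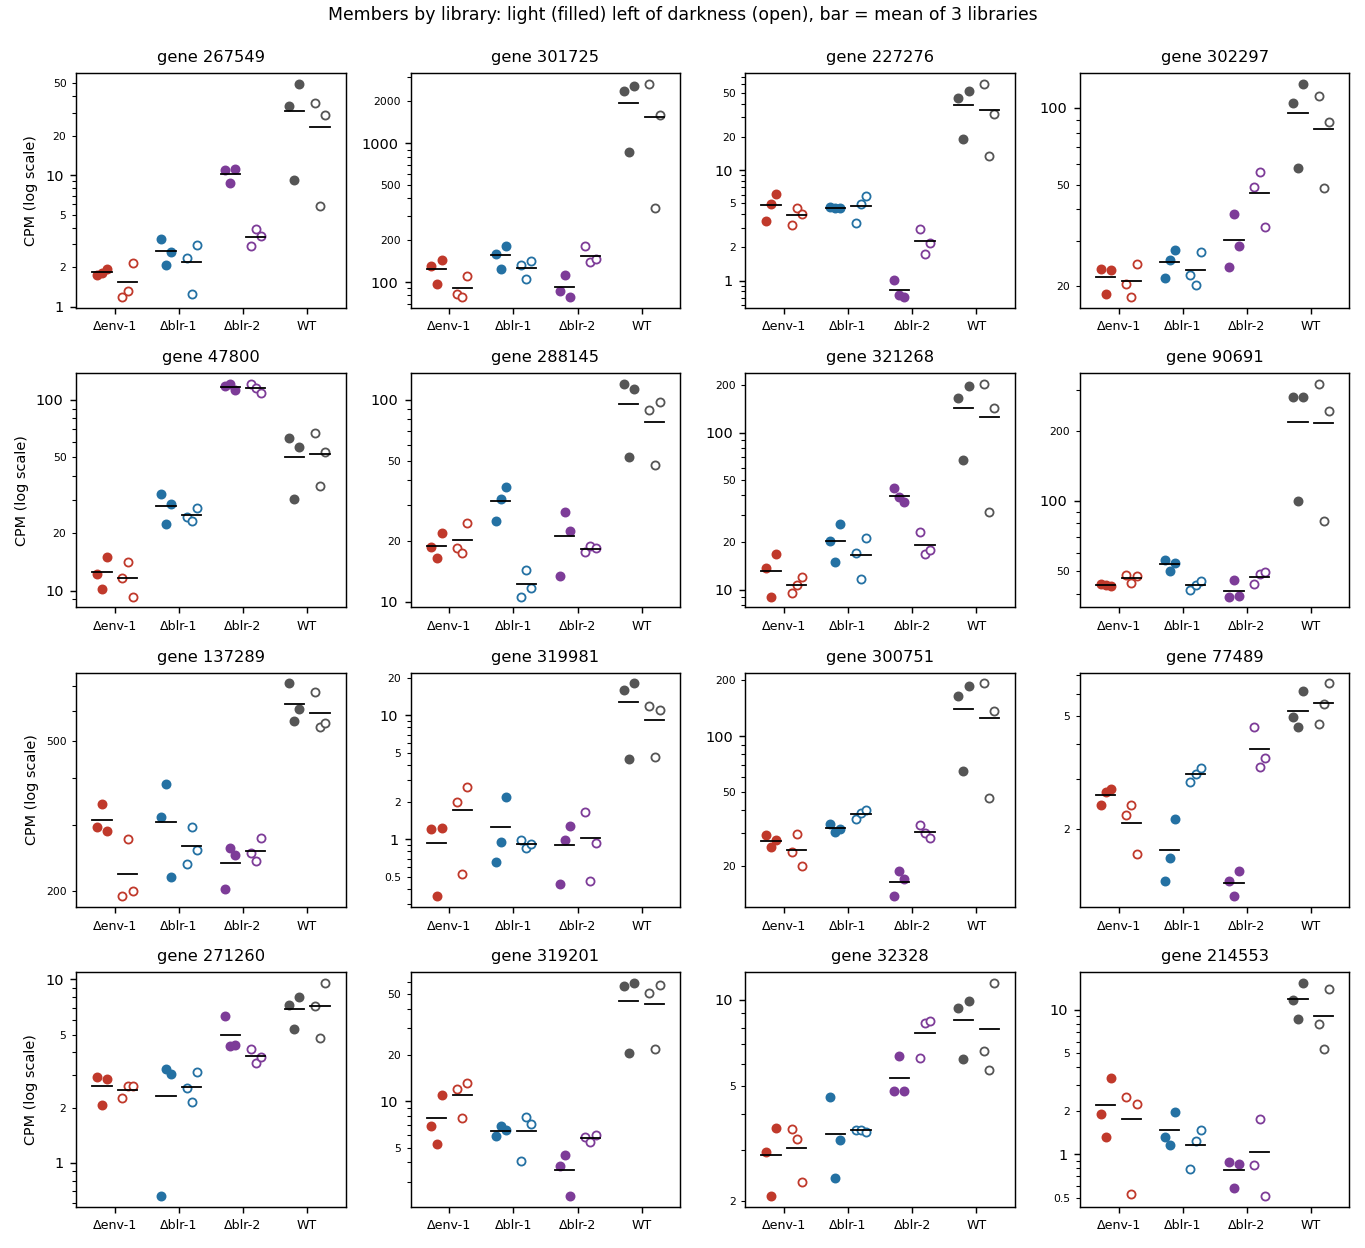
Each panel plots 1 of the 16 transcripts as CPM on a logarithmic axis in 24 libraries, with light (filled) left of darkness (open) in Δenv-1, Δblr-1, Δblr-2 and WT, and a bar at the mean of each 3 libraries. Δblr-1 lies beside Δenv-1 in most panels, Δblr-2 is higher than WT in gene 47800, and 1 WT library of each treatment is well below the other two in most panels.

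The libraries of Δblr-1 and Δblr-2 took no part in the choice of the members, and the question is whether the members are low in these strains too. The WT libraries did take part, and choosing transcripts that were high in all of them lifts WT in any comparison with these 16. Both comparisons use the same WT libraries. Over the mean of dark and light, same-numbered light and dark libraries were counted as independent, though their deviations correlated in WT and Δblr-1. The errors and p-values over that mean may thus be too small. Counts of members are set beside the share of all transcripts that passed the same criterion. Those transcripts were not chosen by the rule, so the share does not remove this lift, and the p-values against WT carry it too. In bulk libraries such as these, less RNA of a transcript per cell and fewer cells of a kind that make it cannot be told apart.

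In Δblr-1, 15 of the 16 members had every library below every WT library, against 4.17% of the 7909 transcripts at or over the WT minimum. In 14 of these the Δblr-1 values overlapped the Δenv-1 range, and gene 300751 lay between the strains. By edgeR's quasi-likelihood test over the mean of dark and light, all 16 were called lower in Δblr-1 than in WT, against 3.13% of all transcripts tested. A call needed an adjusted p of 0.05 or lower and a log2 fold change of 1 or more in either direction. The median log2 fold change was -2.13 over the members and -0.0039 over all transcripts. Without the WT libraries of number 2 the call held in 16 members, and all 16 were below the remaining WT libraries, as were 12% of the 7909 transcripts. Taken alone, darkness gave 15 members called lower (1.72% of all transcripts) and light gave 15 (3.44%).

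Genes 267549 and 301725 had the largest differences. Gene 301725 had 159, 124 and 183 CPM in Δblr-1 light and 133, 104 and 141 CPM in Δblr-1 darkness, with log2 fold changes against WT of -3.64 ± 0.345 (SE, adjusted p = 1.904e-07 by edgeR). In gene 267549 the value was -3.65 ± 0.417 (adjusted p = 1.935e-06 by edgeR). Both were also the members with the largest fold in Δenv-1, at -4.09 and -4.12 in the same fit, for which no error is given because the rule used that contrast. Gene 319981 followed in Δblr-1, at -3.35.

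The smallest differences in Δblr-1 belonged to genes 47800, 137289 and 77489, at log2 fold changes of -1.02, -1.10 and -1.22. Gene 47800 was the exception in range as well. It had 32.3, 22.2 and 28.5 CPM in Δblr-1 light and 24.3, 23.3 and 27.1 CPM in Δblr-1 darkness, so its highest Δblr-1 library passed the lowest WT library, at 30.1 CPM, while all 6 lay above the highest Δenv-1 library, at 15 CPM. Its log2 fold change was near the minimum of 1 used for a call. It was no longer called with edgeR's likelihood ratio test or DESeq2, at -0.983 and -0.982, nor without Δblr-1 light or dark replicate 2, WT light replicate 1 or 3 or WT dark replicate 1, at -0.988 to -0.893. Gene 137289 was not called without Δblr-1 light replicate 3, at -0.988.

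Every Δenv-1 library was below every Δblr-1 library in 2 members, genes 47800 and 300751, as in 2.36% of the 7909 transcripts, and below every Δblr-2 library in 5, as in 8.96%. The rule used the Δenv-1 libraries, so nothing is read from these counts.

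In Δblr-2 the members were less uniform. In 10 of the 16 every library was below every WT library, against 4.49% of the 7909 transcripts, and the same 10 were below WT in Δblr-1, where 0.999% of transcripts were below in both strains. With TMM-scaled CPM the members below WT were again 15 in Δblr-1 and 10 in Δblr-2. The shares of all transcripts on that scale are not given here. By edgeR, 13 members were called lower in Δblr-2 than in WT, against 3.05% of all transcripts, and gene 47800 was called higher, as 4.66% were. The median log2 fold change was -2.23 over the members, with a range from -4.82 to 1.17, and -0.0089 over all transcripts. Darkness alone gave 11 members called lower (1.91% of all transcripts) and light alone 13 (4.59%). Without the WT libraries of number 2, 14 members were below the remaining WT libraries, as were 9.46% of transcripts, and the higher call of gene 47800 was lost at 0.948, just under the minimum fold.

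Gene 227276 was lower in Δblr-2 than in any other strain. It had 1.02, 0.746 and 0.711 CPM in Δblr-2 light and 2.92, 1.75 and 2.19 CPM in Δblr-2 darkness, against 45.4, 19.1 and 52.6 CPM in WT light and 60.4, 13.6 and 32.0 CPM in WT darkness. Its log2 fold change against WT was -4.82 ± 0.349 (adjusted p = 4.574e-10 by edgeR). All 6 Δblr-2 libraries were below all 6 libraries of Δenv-1, whose lowest held 3.19 CPM, and below those of Δblr-1, whose lowest held 3.33 CPM. Counts behind the Δblr-2 values were low, at 5 to 47, and dark replicate 1, the highest at 2.92 CPM, held 7.

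Gene 47800 went the other way. It had 119, 120.5 and 112 CPM in Δblr-2 light and 122, 115 and 108 CPM in Δblr-2 darkness, against 63.1, 30.1 and 56.6 CPM in WT light and 66.99, 35.5 and 53.5 CPM in WT darkness. Its log2 fold change was 1.17 ± 0.138 (adjusted p = 5.864e-07 by edgeR). The 3 mutants did not overlap: Δenv-1 held 9.27 to 15 CPM, Δblr-1 22.2 to 32.3 CPM and Δblr-2 108 to 122 CPM, against 30.1 to 66.99 CPM in WT, which overlapped Δblr-1 alone.

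The other 5 members that were not below WT in every Δblr-2 library overlapped the WT range. Genes 267549, 302297 and 321268 were still called lower, at log2 fold changes of -2.17, -1.26 and -2.33. Genes 271260 and 32328 were not called. Gene 32328 had 4.82, 6.38 and 4.83 CPM in Δblr-2 light and 6.26, 8.31 and 8.42 CPM in Δblr-2 darkness, against 9.38, 6.25 and 9.90 CPM in WT light and 6.61, 5.71 and 11.5 CPM in WT darkness. Its log2 fold change was -0.32 (95% interval -0.67 to 0.03, adjusted p = 0.13 by edgeR). In gene 271260 it was -0.71 (95% interval -1.09 to -0.33, adjusted p = 0.0035 by edgeR), under the minimum fold.

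**Figure D2:**
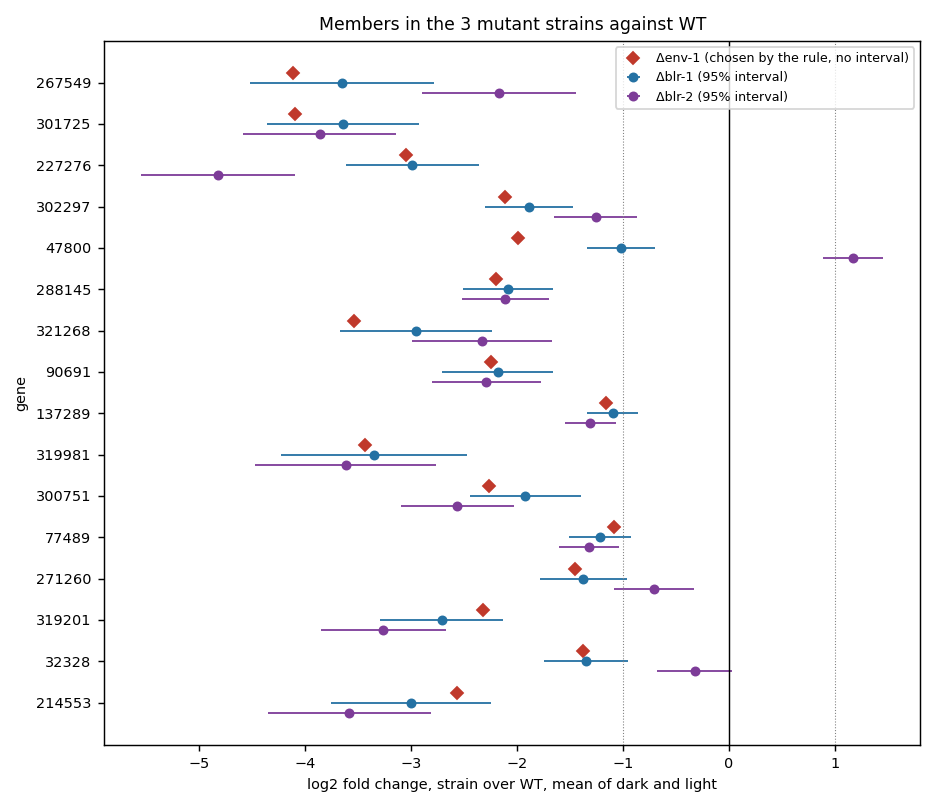
Each row is 1 of the 16 transcripts, and the horizontal axis gives its log2 fold change against WT over the mean of dark and light, with 95% intervals for Δblr-1 and Δblr-2 and a point without interval for Δenv-1, which the rule used. All Δblr-1 points lie left of -1, while Δblr-2 reaches -4.82 in gene 227276 and 1.17 in gene 47800.

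Δblr-2 and Δblr-1 were also compared directly, a contrast in which neither strain was used by the rule. By edgeR, 3 members were called higher in Δblr-2 than in Δblr-1, against 5.18% of all transcripts, and 1 was called lower, against 1.57%. The higher ones were gene 47800, at a log2 fold change of 2.19 ± 0.152 (adjusted p = 2.467e-10 by edgeR), gene 267549, at 1.49 ± 0.455 (adjusted p = 0.012 by edgeR), and gene 32328, at 1.02 ± 0.191 (adjusted p = 0.00018 by edgeR). The lower one was gene 227276, at -1.84 ± 0.415 (adjusted p = 0.0012 by edgeR). Without Δblr-1 light replicate 2 the calls of genes 267549 and 32328 were lost, at 1.37 and 0.869, and that of gene 32328 was also lost, between 0.941 and 0.998, without Δblr-2 light replicate 2, dark replicate 2 or dark replicate 3.

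In the other 12 members no difference between the 2 strains was called, with log2 fold changes between -0.642 and 0.665. Genes 271260 and 302297 were higher in Δblr-2, at 0.665 and 0.630 (adjusted p = 0.012 and 0.018 by edgeR). They missed the call by the minimum fold alone. The data limit the size of a difference unequally from gene to gene. In gene 137289 the 95% interval ran from -0.45 to 0.03, and in gene 288145 from -0.48 to 0.42, whereas in gene 319981, with 3 to 20 counts in the Δblr-2 libraries and 1 to 20 in those of Δblr-1, it ran from -1.38 to 0.85.

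The light response of the members is light against darkness in the same strain, which the rule did not compare. It bounded the light and dark libraries of WT and Δenv-1 together, however. A transcript that light changed strongly in both strains would tend to fail it. The counts for WT and Δenv-1 below are therefore not independent of the choice of members. No member was called in WT or in Δenv-1 by edgeR, while 1.28% of all transcripts were called in each. An unadjusted p under 0.05 was found in 0 of the 16 in either, against 18.9% of all transcripts in WT and 16.7% in Δenv-1. DESeq2 and the likelihood ratio test also called 0 members in these strains. Log2 fold changes ran from -0.07 to 0.52 in WT and from -0.52 to 0.60 in Δenv-1, where 2 dark libraries entered the fit. The difference of the light responses, Δenv-1 minus WT, ran from -1.03 to 0.24 with a median of -0.03 and was called in 0 members by edgeR, by DESeq2 and by the likelihood ratio test. No member had an unadjusted p under 0.05, against 4.23% of all transcripts, and 0.0208% of all transcripts were called.

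The intervals show how large a response could have gone unseen. In WT gene 301725 they ran from -0.57 to 1.21, and in WT gene 137289 from -0.25 to 0.42. In Δenv-1 the same genes gave -0.53 to 1.62 and -0.05 to 0.71. For comparison, in the same libraries *blu*-1 had 1146 ± 73.3 CPM in Δenv-1 light and 6.17 ± 1.26 CPM in Δenv-1 darkness, and 627 ± 119 CPM in WT light and 2.83 ± 0.866 CPM in WT darkness (SD, n = 3 each).

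In the *blr* mutants 3 members were called in light against darkness. Gene 288145 was called higher in Δblr-1, as 0.135% of all transcripts were. It had 25.0, 32.3 and 37.0 CPM in Δblr-1 light and 10.6, 14.4 and 11.7 CPM in Δblr-1 darkness, without overlap. The log2 fold change was 1.38 ± 0.315 (adjusted p = 0.033 by edgeR). The call was lost when any of the Δblr-1 libraries other than light replicate 1 was left out, with log2 fold changes from 1.31 to 1.57. In Δenv-1 the same gene had 18.6, 16.4 and 21.9 CPM in light and 18.5, 17.4 and 24.6 CPM in darkness, and its log2 fold change there was -0.00079 (95% interval -0.68 to 0.68).

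The difference of the light responses of gene 288145, Δblr-1 minus WT, was 1.09 ± 0.405 (adjusted p = 0.30 by edgeR), and 1.38% of all transcripts were called in it. No member was called there by edgeR, DESeq2 or the likelihood ratio test. In 2, genes 288145 and 77489, the unadjusted p was under 0.05, as in 9.89% of all transcripts. With the replicate numbers as a block within each strain, or without the WT libraries of number 2, this difference was called in 1 member, gene 288145.

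Gene 267549 was called higher after light in Δblr-2, as 6.01% of all transcripts were, and gene 77489 lower, as 1.36% were. Gene 267549 had 10.96, 8.71 and 11.2 CPM in Δblr-2 light and 2.92, 3.88 and 3.44 CPM in Δblr-2 darkness. Its log2 fold change was 1.57 ± 0.540 (adjusted p = 0.026 by edgeR). Every light library was above every dark one, but the call was lost without light replicate 1 or 3 or dark replicate 2 or 3, at adjusted p between 0.060 and 0.092. Its light libraries of Δblr-2 reached into the WT range, whose lowest library held 5.89 CPM, and its dark libraries did not.

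Gene 77489 had 1.32, 1.16 and 1.42 CPM in Δblr-2 light and 4.59, 3.32 and 3.58 CPM in Δblr-2 darkness. Its log2 fold change was -1.46 ± 0.210 (adjusted p = 1.219e-05 by edgeR). The call was kept under every alternative tried and without each Δblr-2 library in turn. In WT the same gene had 4.98, 4.59 and 6.14 CPM in light and 4.70, 5.53 and 6.54 CPM in darkness, a log2 fold change of -0.07 (95% interval -0.44 to 0.29). The difference of these responses, Δblr-2 minus WT, was -1.38 ± 0.273 (adjusted p = 0.00097 by edgeR), and it was the only member called in that comparison, where 19.5% of all transcripts were called and 7.85% in the lower direction. In Δblr-1 gene 77489 had 1.32, 1.58 and 2.18 CPM in light and 2.94, 3.14 and 3.30 CPM in darkness, at -0.84 ± 0.217 (adjusted p = 0.060 by edgeR). Light replicate 1 held 2 counts there, fewer than the 3 taken as the detection limit, which is 1.98 CPM in that library. In WT the unadjusted p of the light response was 0.90 by edgeR, higher than the error of 0.174 there gives. The errors and intervals of gene 77489 may thus be too small.

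Genes 321268 and 227276 were near the threshold in Δblr-2. Gene 321268 had 44.3, 38.8 and 36.1 CPM in Δblr-2 light and 23.4, 17.0 and 17.8 CPM in Δblr-2 darkness, at 1.15 ± 0.479 (adjusted p = 0.063 by edgeR). Gene 227276, lower in all 3 light libraries than in the dark ones, was at -1.32 ± 0.694 (adjusted p = 0.14 by edgeR). Both were called, with 4 members in all, without the WT libraries of number 2, which belong to neither group compared but share the estimate of the spread. The difference of the light responses, Δblr-2 minus WT, was then called in 6 members in place of 1. The shares of all transcripts called in that setting are not given here, so neither count is read as particular to the members. Between the *blr* mutants, Δblr-2 minus Δblr-1, no member was called by edgeR, while 15.7% of all transcripts were called. An unadjusted p under 0.05 was found in 1 member, against 27.3% of all transcripts. DESeq2 called 0 there, and the likelihood ratio test called 1.

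**Figure D3:**
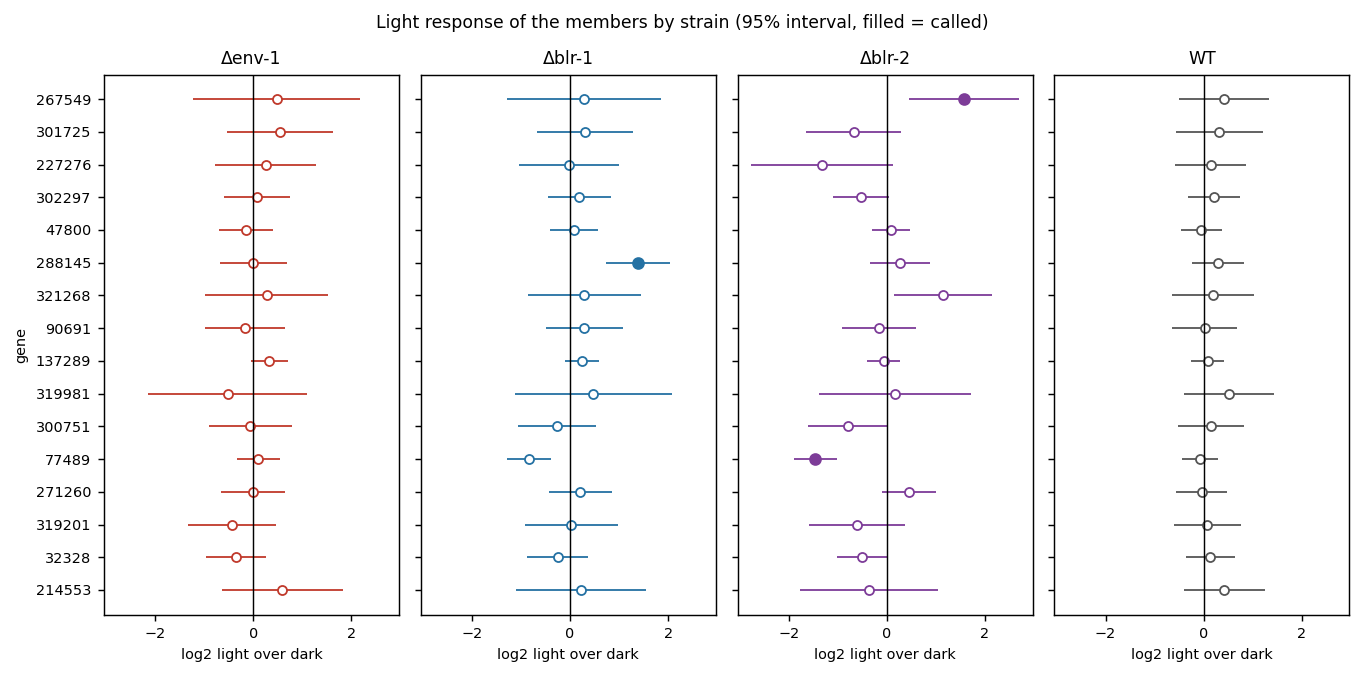
Each panel is a strain and each row 1 of the 16 transcripts, with the log2 fold change of light over darkness on the horizontal axis, its 95% interval, and a filled point where the change was called. The filled points are gene 288145 in Δblr-1 and genes 267549 and 77489 in Δblr-2, and the points of Δenv-1 and WT all lie between -0.52 and 0.60.

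Some members are neighbours in the genome. Gene order was taken from the RefSeq annotation of another strain, P1 (assembly ASM2064779v1), where 10686 of the transcripts and 15 of the 16 members were found, gene 77489 not among them. Genes 321268, 301725 and 227276 followed one another with no gene model between. Genes 319981 and 300751 had 3 models between them, and genes 32328 and 267549 had 11. The other 8 members found had no second member within 12 steps. The member nearest to *env*-1 was 366 steps away, and 1 member shared its chromosome.

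Around the run of 3 the neighbours differed less. On the side of gene 321268 the 7 matched models up to 8 steps away had log2 differences of means, Δenv-1 over WT with 0.5 CPM added, between -0.17 and 0.45. The nearest of them, genes 277387 and 301721, averaged 0.0386 and 0.834 CPM in WT, too low to show a lowering. On the side of gene 227276 the next model, gene 227281, averaged 5.21 CPM in Δenv-1 and 11.6 CPM in WT, and its range overlapped between the strains. The models just beyond gene 227281 were not matched. Within the run the members kept different patterns in Δblr-2: gene 321268 averaged 29.6 CPM, gene 301725 averaged 124 CPM and gene 227276 averaged 1.56 CPM there, against 135.5, 1742 and 37.2 CPM in WT.

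Around genes 319981 and 300751 the 3 models between them were modestly lower in Δenv-1, at log2 differences between -0.67 and -0.58. One model, gene 246378, lay 2 steps beyond gene 300751 and averaged 82.5 CPM in Δenv-1, 85.6 CPM in Δblr-1, 96.4 CPM in Δblr-2 and 618 CPM in WT. It narrowly missed the rule, with a ratio of 0.730. Between genes 32328 and 267549, gene 85011 averaged 3.06 CPM in Δenv-1 and 13.3 CPM in WT, but its ratio of 2.46 reflects overlapping libraries. These non-members were named after their values were seen.

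**Figure D4:**
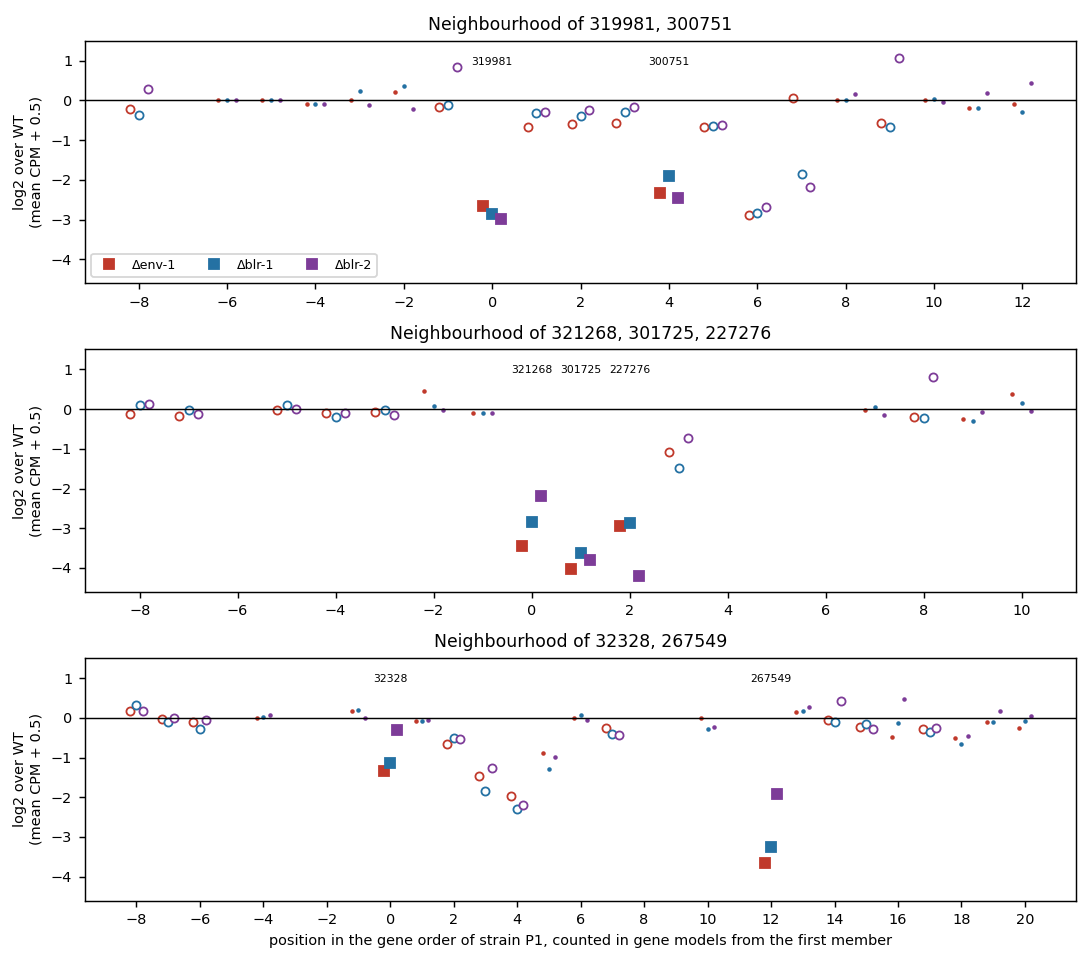
The 3 panels place gene models by their order around neighbouring members, counted from the first member of each group, and show the log2 ratio of mean CPM (0.5 added) to WT in Δenv-1, Δblr-1 and Δblr-2. Squares are members, open circles non-members with at least 5 CPM in WT, and small dots models under that level. Genes 321268, 301725 and 227276 form a run with models near 0 on the side of gene 321268 and gene 227281, at -1.08 in Δenv-1, on the other, and gene 246378 is as low as the members near it.

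The WT libraries of number 2 stood apart in the members. In 15 of the 16, replicate 2 was the lowest WT library in darkness and in light, gene 77489 being the exception, against 24.2% of the 7909 transcripts. The rule used these WT libraries and did not choose the 7909 transcripts, so that share is not a matched baseline. The median CPM of the members was 59.5, 25.3 and 57.7 in WT light and 63.7, 26.5 and 55.4 in WT darkness. In the mutants it ranged from 7.13 to 13.0 in Δenv-1, from 7.34 to 16.3 in Δblr-1 and from 11.9 to 14.1 in Δblr-2. By this median even WT replicate 2 exceeded every mutant library, which the rule required for Δenv-1. The median hides single members. In Δblr-2, 5 members overlapped the WT range and gene 47800 was above it, and in Δblr-1 gene 47800 overlapped it.

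Markers of conidiation moved in the same WT libraries. They were the 6 transcripts that the study's tables name hydrophobin, conidial pigment polyketide synthase or conidiospore surface protein, none of them a member and none at 0 in any Δenv-1, Δblr-1 or WT library, while 1, a conidial pigment polyketide synthase, was at 0 in Δblr-2 dark replicate 1. Their summed CPM was 24.2, 18.6 and 47.7 in Δenv-1 light and 754, 25.7 and 932 in Δenv-1 darkness, between 19.6 and 58.9 in Δblr-1 and between 25.4 and 31.9 in Δblr-2. In WT it was 404, 39.3 and 561 in light and 311, 70.1 and 601 in darkness. Thus these genes were low in replicate 2 of WT, as the members were, and low in both *blr* mutants.

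In Δenv-1 dark replicates 1 and 3 the summed CPM of the conidiation genes was above that of every WT library, though not that of each gene singly. The median of the members was 10.53 and 10.7 CPM there, against 9.23 CPM in dark replicate 2, where the conidiation genes summed to 25.7 CPM. The rule required the members to be low in every Δenv-1 library, so nothing is read from these values. In Δblr-1 and Δblr-2 no library had them high, and their part in the difference of the members from WT was not tested.

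**Figure D5:**
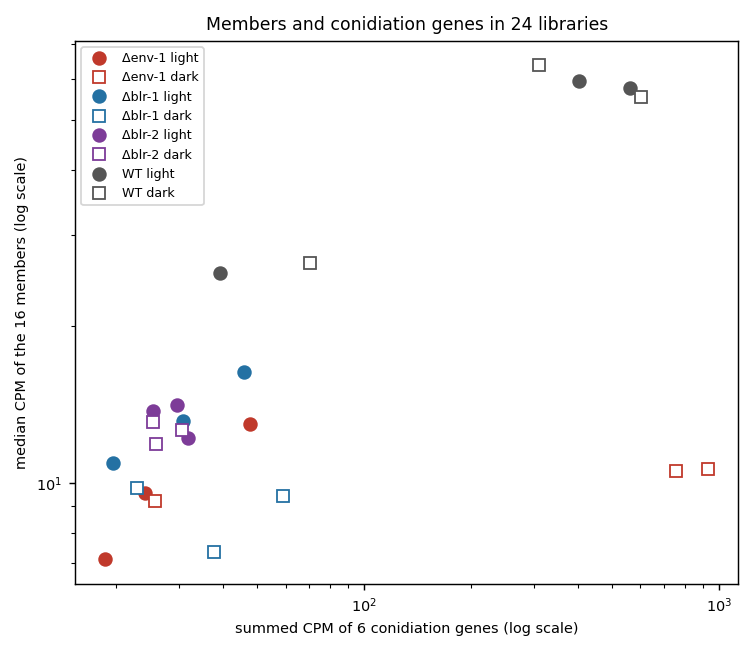
Each point is 1 of 24 libraries, placed by the summed CPM of 6 conidiation genes and by the median CPM of the 16 members, both on logarithmic axes, with circles for light and squares for darkness. The 4 WT libraries of numbers 1 and 3 are high on both axes, WT replicate 2 is lower on both, and 2 Δenv-1 dark libraries are high in conidiation genes, with members at 10.53 and 10.7 CPM, a level that the rule set.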

How the data were processed

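Libraries were prepared from mycelium RNA with an Illumina TruSeq RNA kit and sequenced on an Illumina HiSeq platform. The authors checked reads with FastQC, pseudoaligned them with kallisto (versions not given in the sources used here) to transcripts predicted from version 2 of the *T. atroviride* genome, and deposited estimated counts (expected counts), neither normalized nor filtered. Of the values, 8.35% were not whole and were rounded for tests. The names of 12 columns matched no sample with certainty, so Δcry-1 and Δcry-DASH were not analysed here.

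CPM were computed by column sum. Tests used edgeR 4.0.16 under R 4.3.3 (quasi-likelihood, TMM, filterByExpr with a minimum count of 10, a mean per strain and treatment, Benjamini-Hochberg adjustment over 9605 transcripts). A call needed an adjusted p of 0.05 or lower and, except for differences of light responses, a log2 fold change of 1 or more in either direction. Δenv-1 dark replicate 3, which the authors did not test, was left out. Since the members were chosen on Δenv-1 and WT, that contrast was not tested. All members are named, with the 3 transcripts on either side of the ratio threshold. Members and lists were chosen with earlier results of these data known.

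Depth is given in the report. A library with 3 counts or fewer of a transcript is near its detection limit, which covers counting error only. Every pair of replicates differed by more than sampling noise (chi-square of at least 2.01 per degree of freedom). The p-values measure the spread between these libraries. Fits were tested on simulated data. Same-numbered light and dark libraries, numbered by the labels, had deviations correlated over 9605 transcripts as follows: Δenv-1 0.114 and 0.112, Δblr-1 0.119, 0.199 and 0.115, Δblr-2 0.001, 0.088 and 0.037, WT 0.211, 0.526 and 0.357. Numbers were thus taken to pair libraries in WT and Δblr-1, a pairing that the main tests did not use. Same-numbered libraries of Δblr-1 and WT also correlated, at 0.143, 0.183 and 0.0979 in light and 0.105, 0.215 and 0.216 in darkness. For Δenv-1 and WT it was 0.0997, 0.149 and 0.199 in light and 0.204 and 0.375 in darkness. For Δblr-2 and WT the values ran from -0.0589 to 0.0406. The reason was not tested. RLE and column-sum scaling, other filters, the likelihood ratio test, DESeq2 1.42.0, unrounded counts, replicate blocks and left-out libraries were tried, and the differences of light responses between Δblr-1, Δblr-2 and WT were added after seeing the data. Reads shared between near-identical paralogs were not examined.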

Additional observations from a re-analysis of the deposited data

Results flagged for a closer look

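Gene 77489 responded to light differently in Δblr-2 and in WT, by a test of the difference itself. The difference of the log2 fold changes, Δblr-2 minus WT, was -1.38 (adjusted p = 0.00097 by edgeR's quasi-likelihood test), and the 3 Δblr-2 light libraries, at 1.16 to 1.42 CPM, were all below the 3 Δblr-2 dark libraries, at 3.32 to 4.59 CPM. The light libraries rest on 9 to 14 counts each. The comparison was added after seeing the data. Calls in it were common, at 19.5% of all transcripts and 7.85% in the lower direction. In Δblr-1 the light response of gene 77489 went the same way, at -0.84 (adjusted p = 0.060 by edgeR). Its difference Δblr-2 minus Δblr-1 was -0.62 and was not called (adjusted p = 0.35 by edgeR). The response was thus not shown to be particular to Δblr-2.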

How the results depend on the processing

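The choice of the members depended on its settings. It gave 9 transcripts with TMM-scaled CPM and 10 with 2 CPM added, all of them among the 16. A ratio threshold of 0.5 gave 3 and one of 0.8 gave 45. Leaving out each library gave 16 to 57, the most without WT dark replicate 2, and the 16 were among them each time. The light response of the members in Δblr-1 was called in 0 to 1 members without each replicate. That in Δblr-2 was called in 1 to 2 members without each replicate, and in 4 with the likelihood ratio test and in 4 without the WT libraries of number 2, an alternative chosen after seeing the data. Δblr-2 against Δblr-1 was called in 2 to 4 members without each replicate. The difference Δblr-1 minus WT was called in 1 member without the WT libraries of number 2, Δblr-2 minus WT in 6 and, without each replicate, in 1 to 3, and Δblr-2 minus Δblr-1 in 5, in 1 with the likelihood ratio test and, without each replicate, in 0 to 1. For Δblr-2 the shares of all transcripts called under these settings are not given here, so no change in these counts is read as particular to the members. The cause was not tested.

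With the replicate numbers as a block within each strain, the light response in Δblr-2 was called in 4 members, and the differences Δblr-1 minus WT, Δblr-2 minus WT and Δblr-2 minus Δblr-1 in 1, 8 and 3. In Δblr-2 the numbers did not pair the libraries, and the shares of all transcripts called there with the block are not given here. With a block shared by all strains, Δblr-1 against WT was called in 15 members, without gene 47800, and Δblr-2 against WT in 14. The blocks changed no other count of members.

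Of 818 values of called genes under the alternatives, 794 kept direction and call, 24 lost the call and 0 reversed. Counts over all transcripts moved by over 1.5 times in some light responses. In Δenv-1 it was 123, and 201 with dark replicate 3 included and 207 without dark replicate 2. In Δblr-1 it was 19, and 30 with the likelihood ratio test, 40 with the block, 32 without the WT libraries of number 2 and 5 to 18 without each replicate. For Δenv-1 minus WT it was 2, and 6 with the likelihood ratio test, 5 with DESeq2, 6 with the block, 4 without the WT libraries of number 2 and 2 to 51 without each replicate. For Δblr-1 minus WT it was 133, and 207 with the block. Depth limits members with few counts, such as gene 319981, most.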
